A study of Mus musculus with 12 samples.

Results

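The GABA-B receptor of midbrain dopaminergic neurons was described here by 6 genes, the receptor subunits Gabbr1 and Gabbr2 and the auxiliary subunits Kctd8, Kctd12, Kctd12b and Kctd16, taken by symbol from the 23079 genes of a deposited count table. All 6 were found and all passed the filter on low counts, which 15685 genes passed in all. The libraries came from 2 regions of C57BL/6 mice, the pars compacta of the substantia nigra, SNpc, and the neighbouring ventral tegmental area, VTA. The labels call them TRAP samples, read here as ribosome-bound RNA pulled down from dopaminergic neurons. The labels name no treatment, and neither the driver of the tagged ribosomal protein nor age, sex or pooling of the mice is stated there. After columns with identical counts were counted once (SNpc 4 with 5, VTA 2 with 3), there were 5 SNpc libraries, numbered 1, 2, 3, 4 and 6, and 5 VTA libraries, numbered 1, 2, 4, 5 and 6, and values of single libraries are given in that order.

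The GABA-B receptor is the metabotropic receptor for GABA. It is an obligate pair in which the Gabbr1 product binds GABA and the Gabbr2 product carries the pair to the cell surface and couples it to Gi/o proteins, which open inwardly rectifying GIRK potassium channels, close presynaptic calcium channels and slow adenylyl cyclase. The Kctd proteins of this group bind the tail of the Gabbr2 product together with the G protein beta and gamma subunits. Those encoded by Kctd12 and Kctd12b make the potassium current fade during lasting stimulation, whereas those of Kctd8 and Kctd16 largely do not. In dopaminergic neurons the receptor slows firing in response to GABA from striatal, pallidal and local neurons.

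Total counts ran from 62356964 to 81393907 per library, and the 2 identical column pairs had 0 genes with different counts while other pairs of a region had chi-square values per gene of 46.8 to 162. Dopaminergic identity was present in both regions and stronger in SNpc, where 10 of 11 markers were higher, with summed levels of 10093 to 14672 counts scaled to library size (CPM) in SNpc and 5123 to 8448 CPM in VTA. Astrocyte markers summed to 250.1 to 411 CPM in SNpc and 423 to 569.7 CPM in VTA, with 2 of 6 called, both lower in SNpc. Oligodendrocyte markers summed to 254 to 1243 CPM in SNpc and 646 to 808 CPM in VTA, with 0 of 6 called by edgeR, 0 by DESeq2 and 0 at an unadjusted p under 0.05. SNpc library 4 stood apart, with the highest oligodendrocyte sum of all, the highest sum of GABAergic neuron markers (562 CPM, against 299 to 372 CPM in the other SNpc libraries) and the lowest sum of dopaminergic markers in SNpc. In the fit without it, 4 of 6 oligodendrocyte markers and 3 of 6 astrocyte markers were called lower in SNpc. Across the whole table, that fit called 3193 of 15904 genes lower in SNpc, and 3317 higher. No marker of any list was at 0 in all libraries, although the endothelial marker Cldn5 was at 0 in SNpc library 3 and in VTA libraries 4 and 6, and the microglia marker C1qa in SNpc libraries 1 and 6 and in VTA library 2.

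**Figure D1:**
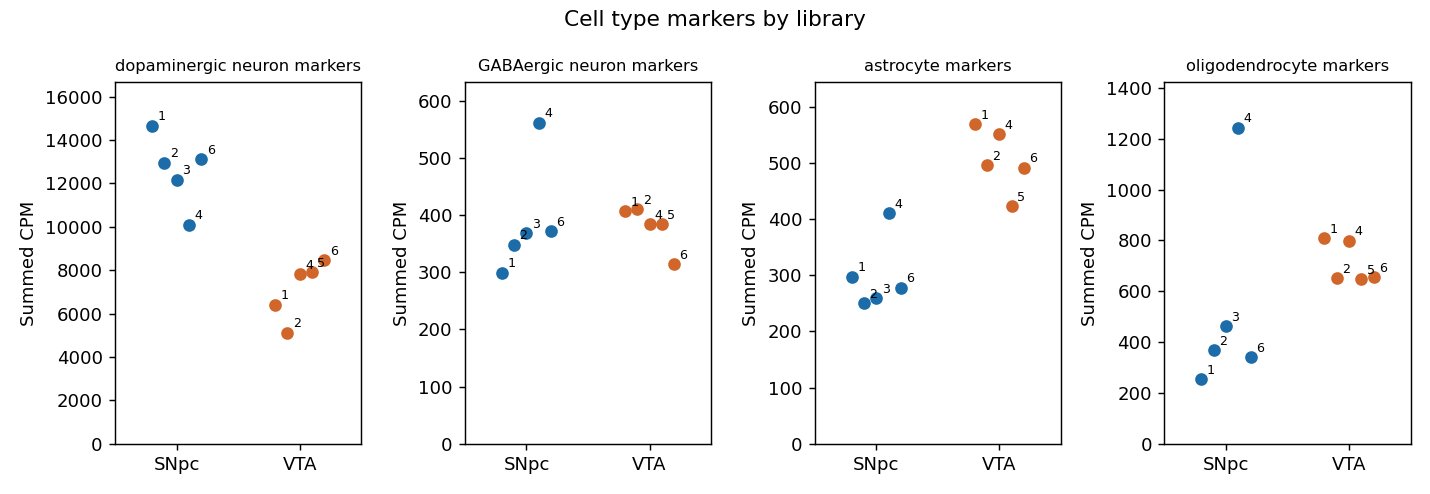
Summed CPM of the markers of 4 cell types (y axes) in the 5 SNpc and 5 VTA libraries, each point a library with its number. Dopaminergic markers lie between 10093 and 14672 CPM in SNpc, above every VTA library, and SNpc library 4 has the highest oligodendrocyte sum, 1243 CPM.

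Of the 6 genes, 3 auxiliary subunits, Kctd8, Kctd12 and Kctd16, were lower in SNpc and Gabbr1 was higher, while Gabbr2 and Kctd12b did not pass the test. The test was the edgeR quasi-likelihood test with Benjamini-Hochberg adjustment over all genes and a threshold of 0.05. Of all genes tested, 20.4% were lower in SNpc and 17.8% were higher, 38.2% in either direction, so calls in this table were common. The groups did not overlap for Kctd8 and Kctd12. Of all genes tested, 26.6% had groups that did not overlap, 14.6% with SNpc the lower. In ribosome-bound RNA of a whole region, fewer cells that express a gene and less RNA per cell cannot be told apart.

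**Figure D2:**
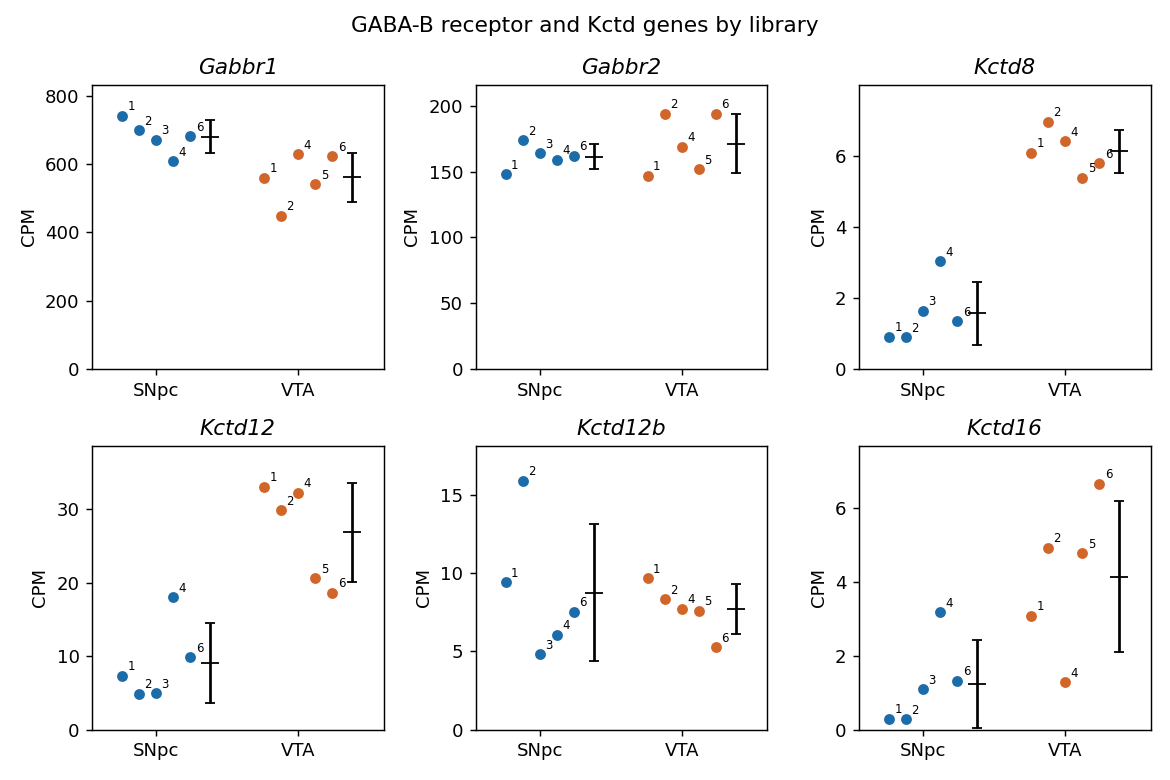
CPM (y axes, from 0) of the 6 genes in SNpc and VTA, each point a library with its number and black bars the mean ± SD over 5 libraries. Kctd8 and Kctd12 are lower in all 5 SNpc libraries than in any VTA library, and SNpc library 4 is the highest SNpc library for Kctd8, Kctd12 and Kctd16.

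Gabbr1, the GABA-binding subunit (Entrez 54393, mm10 chromosome 17, 37045966 to 37075067, plus strand), had 742, 699, 672, 608 and 682 CPM in the 5 SNpc libraries, against 560.4, 449.6, 629, 542 and 624 CPM in the 5 VTA libraries. Of the SNpc libraries, 4 lay above every VTA library and library 4 lay below the 2 highest VTA libraries. The means were 681 ± 48.8 CPM in SNpc and 561 ± 73.1 CPM in VTA (mean ± SD of 5 libraries per region). The log2 fold change was 0.28 ± 0.10 (SE, edgeR adjusted p = 0.0313). Scaling by library totals ended the call (edgeR adjusted p = 0.0567), as did adding glial markers to the model (edgeR adjusted p = 0.138). Leaving out SNpc 1, 2, 3 or 6, or VTA 1, 2 or 5, ended it too, at edgeR adjusted p values of 0.0517 to 0.0813.

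Gabbr2, the subunit that couples to the G protein (Entrez 242425, chromosome 4, 46662305 to 46991873, minus strand), was not called. It had 148, 174, 164, 159 and 162 CPM in the 5 SNpc libraries, against 147, 194, 169, 152 and 194 CPM in the 5 VTA libraries. The SNpc values lay within the range of the VTA values. The log2 fold change was -0.09 ± 0.10 (SE, edgeR adjusted p = 0.524), and an interval of 2 standard errors ran from -0.28 to 0.11.

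The relation of level to transcript length differed between the libraries of the regions. Relative to the mean of all libraries, log2 CPM changed by -0.178 to -0.0369 per doubling of exon length in the SNpc libraries and by 0.0667 to 0.226 in the VTA libraries. With the trend on length and GC content removed and the library scale kept, the log2 fold change of Gabbr1 was 0.63 (edgeR adjusted p = 2.38e-04) and that of Gabbr2 turned to 0.23 (edgeR adjusted p = 0.0678). Length and GC content were removed together, and the part of each was not tested. Calls in that fit came to 15.1% of genes higher in SNpc and 16.4% lower, and with the scale refitted to 14.8% higher and 16.9% lower. With glial markers in the model they came to 13.1% higher and 16.9% lower.

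The ratio of the receptor subunits needs no library scale. Per kilobase of exon, Gabbr1 was 4.36, 3.5, 3.56, 3.32 and 3.67 times Gabbr2 in the 5 SNpc libraries, against 3.31, 2.01, 3.23, 3.1 and 2.81 times Gabbr2 in the 5 VTA libraries. Every SNpc library was above every VTA library, though SNpc library 4 and VTA library 1 were nearly equal. The mean log2 ratio was 1.87 ± 0.15 in SNpc and 1.51 ± 0.29 in VTA (mean ± SD of 5 libraries per region), a difference of 0.36. A two-sided exact permutation test gave p = 0.00794, the smallest that 5 against 5 libraries allow, and p = 0.0238 after Benjamini-Hochberg adjustment over the 3 ratios tested.

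Kctd8 (Entrez 243043, chromosome 5, 69109285 to 69341679, minus strand), whose product leaves the current largely undiminished, had 0.907, 0.896, 1.64, 3.03 and 1.34 CPM in the 5 SNpc libraries. The 5 VTA libraries had 6.08, 6.95, 6.41, 5.38 and 5.78 CPM. All VTA libraries lay close together and above every SNpc library. The means were 1.56 ± 0.877 CPM in SNpc and 6.12 ± 0.596 CPM in VTA (mean ± SD of 5 libraries per region). The log2 fold change was -1.97 ± 0.38 (SE, edgeR adjusted p = 6.20e-04). The gene was still called with glial markers added to the model (log2 fold change -1.65, edgeR adjusted p = 0.00383) and without SNpc library 4 (-2.29, edgeR adjusted p = 9.94e-05).

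Kctd12 (Entrez 239217, chromosome 14, 102976581 to 102982637, minus strand), a single-exon gene whose product speeds the fading of the current, had 7.35, 4.89, 4.99, 18 and 9.87 CPM in the 5 SNpc libraries. The 5 VTA libraries had 33, 29.8, 32.2, 20.6 and 18.6 CPM. SNpc library 4 came within 1 CPM of the lowest VTA library, and the other SNpc libraries were all under 10 CPM. The means were 9.02 ± 5.42 CPM in SNpc and 26.8 ± 6.75 CPM in VTA (mean ± SD of 5 libraries per region). The log2 fold change was -1.57 ± 0.33 (SE, edgeR adjusted p = 0.00187). Without SNpc library 4 the SNpc mean was 6.77 CPM and the log2 fold change -1.93 (edgeR adjusted p = 2.68e-05), and with glial markers added to the model it was -1.22 (edgeR adjusted p = 0.00386). An opposite-strand transcript, Gm26778, covers 3805 of the 6057 exonic bases, and the library kit does not mark strand, so reads of the 2 cannot be told apart, and Gm26778 was not analysed here.

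Because Kctd8 and Kctd12 were both lower in SNpc, the 300 bases around their annotated starts (250 before and 50 after, RefSeq, GRCm38.p6, minus strand, 5′ to 3′) are shown, with capitals on matches to either strand of the GC box GGGCGG or of the cAMP response element TGACGTCA. The Kctd8 window is chr5:69341660-69341959 and the Kctd12 window chr14:102982588-102982887.
Kctd8: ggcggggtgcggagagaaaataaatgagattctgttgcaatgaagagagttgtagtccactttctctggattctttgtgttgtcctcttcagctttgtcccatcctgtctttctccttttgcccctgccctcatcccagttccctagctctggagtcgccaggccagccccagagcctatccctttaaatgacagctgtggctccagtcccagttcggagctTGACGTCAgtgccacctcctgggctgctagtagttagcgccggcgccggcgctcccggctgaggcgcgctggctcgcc
Kctd12: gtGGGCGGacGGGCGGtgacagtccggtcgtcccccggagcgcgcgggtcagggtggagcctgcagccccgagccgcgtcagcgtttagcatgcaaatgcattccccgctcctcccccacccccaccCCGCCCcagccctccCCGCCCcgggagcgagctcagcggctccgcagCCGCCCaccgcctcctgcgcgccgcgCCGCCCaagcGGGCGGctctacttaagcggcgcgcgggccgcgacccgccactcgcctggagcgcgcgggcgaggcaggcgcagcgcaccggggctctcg
The promoters differed in composition. Kctd12 had 45 CpG dinucleotides and 78% GC, against 14 CpG and 57.7% GC in Kctd8, where the median of 32851 mouse promoters of the same length was 7 CpG and 52.7% GC. Kctd12 held 7 GC boxes and Kctd8 held 0, while 35.7% of all promoters held at least 1. Kctd8 held 1 cAMP response element, present in 1.79% of all promoters, and Kctd12 held 0. The receptor promoters held 3 GC boxes in Gabbr1 and 2 in Gabbr2, and no cAMP response element. Neither the site TAATCC bound by Otx2 and Pitx3, nor AAAGGTCA bound by Nr4a2, nor the TATA box TATAAA was found on either strand of these 4 windows, where 7.06%, 1.51% and 13.6% of all promoters held them. Such matches are letters in a window and show no binding. No promoter of Kctd12b or Kctd16 is shown.

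Kctd16 (Entrez 383348, chromosome 18, 40256962 to 40531630, plus strand), which shares with Kctd8 the property of not speeding the fading of the current, was the least abundant and most variable. It had 0.302, 0.277, 1.1, 3.18 and 1.33 CPM in the 5 SNpc libraries, against 3.08, 4.93, 1.28, 4.77 and 6.66 CPM in the 5 VTA libraries. The groups overlapped, since SNpc library 4 lay above VTA libraries 1 and 4, and SNpc library 6 above VTA library 4. The means were 1.24 ± 1.18 CPM in SNpc and 4.14 ± 2.04 CPM in VTA (mean ± SD of 5 libraries per region). The log2 fold change was -1.74 ± 0.63 (SE, edgeR adjusted p = 0.0362). Glial markers added to the model ended the call (edgeR adjusted p = 0.0812), as did leaving out SNpc 1, 2, 3 or 6, or VTA 2, 5 or 6 (edgeR adjusted p = 0.0593 to 0.0994), whereas without SNpc library 4 the change was -2.40 (edgeR adjusted p = 0.00516). An antisense transcript covers 360 of its 2865 exonic bases.

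Kctd12b, an X-linked paralog of Kctd12 (Entrez 207474, chromosome X, 153685154 to 153696391, minus strand), did not follow Kctd12. It had 9.4, 15.9, 4.82, 6.06 and 7.54 CPM in the 5 SNpc libraries, against 9.65, 8.32, 7.72, 7.59 and 5.28 CPM in the 5 VTA libraries. SNpc library 2 was the highest of all and SNpc library 3 the lowest, so the SNpc range enclosed the VTA range. The means were 8.74 ± 4.35 CPM in SNpc and 7.71 ± 1.59 CPM in VTA (mean ± SD of 5 libraries per region). Its log2 fold change was 0.18 ± 0.29 (SE, edgeR adjusted p = 0.663) and was not called. An interval of 2 standard errors ran from -0.40 to 0.77, and without SNpc library 2 the value turned to -0.15. The annotated transcripts of Kctd12 and Kctd12b share 2 words of 30 bases.

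**Figure D3:**
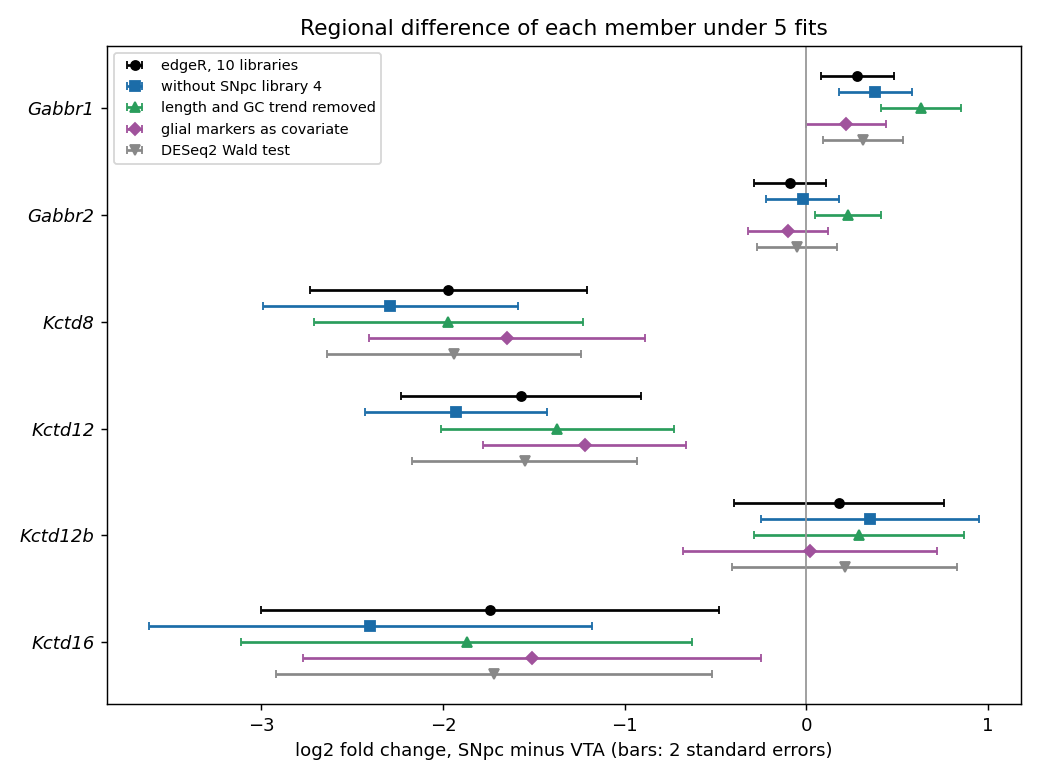
Log2 fold change, SNpc minus VTA (x axis), of the 6 genes under 5 fits, with bars of 2 standard errors. Kctd8 and Kctd12 stay between -2.29 and -1.22 in these fits, Gabbr1 moves to 0.63 and Gabbr2 to 0.23 once the length and GC trend is removed, and Kctd12b lies between 0.02 and 0.35 with bars that cross 0.

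Levels of different genes were compared as CPM per kilobase of exon. In SNpc the order was Gabbr1 (103 ± 7.39), Gabbr2 (28.1 ± 1.6), Kctd12b (1.78 ± 0.887), Kctd12 (1.49 ± 0.895), Kctd8 (0.464 ± 0.26) and Kctd16 (0.432 ± 0.413 CPM per kilobase, SD, n = 5). In VTA it was Gabbr1 (85 ± 11.1), Gabbr2 (29.8 ± 3.86), Kctd12 (4.43 ± 1.12), Kctd8 (1.81 ± 0.177), Kctd12b (1.57 ± 0.323) and Kctd16 (1.45 ± 0.713 CPM per kilobase, SD, n = 5). Receptor subunits stood far above the auxiliary subunits in both regions, with no overlap between Gabbr1, Gabbr2 and the rest. Among the auxiliary subunits in SNpc each gene overlapped the next in order, and in VTA only Kctd12 stood clear of the gene below it.

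Kctd12b made up a larger part of the Kctd RNA in every SNpc library than in any VTA library. It gave 54.7%, 73.5%, 36.7%, 19.9% and 38.2% of the summed Kctd level per kilobase in the 5 SNpc libraries, against 19.1%, 16.3%, 17%, 18.9% and 13.2% in the 5 VTA libraries. Its lowest SNpc share, in library 4, was just above its highest VTA share. The level of Kctd12b itself was not called different, at 1.78 ± 0.887 CPM per kilobase in SNpc and 1.57 ± 0.323 in VTA (SD). The summed Kctd level, by which the share is divided, was 2.68 to 6.22 CPM per kilobase in SNpc and 8.18 to 10.4 in VTA. Kctd12 gave 34.4% ± 11.1 in SNpc and 47.3% ± 8.18 in VTA (mean ± SD of 5 libraries per region), with overlapping ranges of 18.3% to 47.8% in SNpc and 37.5% to 57.5% in VTA. Kctd8 gave 6.02% to 18.2% in SNpc and 17.5% to 20.9% in VTA, and Kctd16 2.19% to 17.9% in SNpc and 4.83% to 28.4% in VTA. These shares are a description with no test, and they depend on the exon lengths used.

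Set against the receptor, the 4 Kctd genes together came to 2.53%, 3.24%, 2.05%, 5.19% and 3.07% of the summed level of Gabbr1 and Gabbr2 per kilobase in the 5 SNpc libraries. In the 5 VTA libraries it was 9.31%, 10.2%, 7.4%, 7.55% and 6.38%. SNpc library 4 was again the closest to VTA without reaching it. For single genes, the log2 ratio of Kctd12 to Gabbr2 per kilobase was -4.42 ± 0.82 in SNpc and -2.78 ± 0.47 in VTA (mean ± SD of 5 libraries per region). The difference was -1.63 (two-sided exact permutation p = 0.0159, adjusted p = 0.0238 over the 3 ratios). The groups overlapped in this ratio, with ranges of -5.23 to -3.22 in SNpc and -3.46 to -2.24 in VTA. The log2 ratio of Kctd12 to Kctd16, 2.19 ± 1.05 in SNpc and 1.77 ± 1.23 in VTA, differed by less than its spread (exact permutation p = 0.579).

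**Figure D4:**
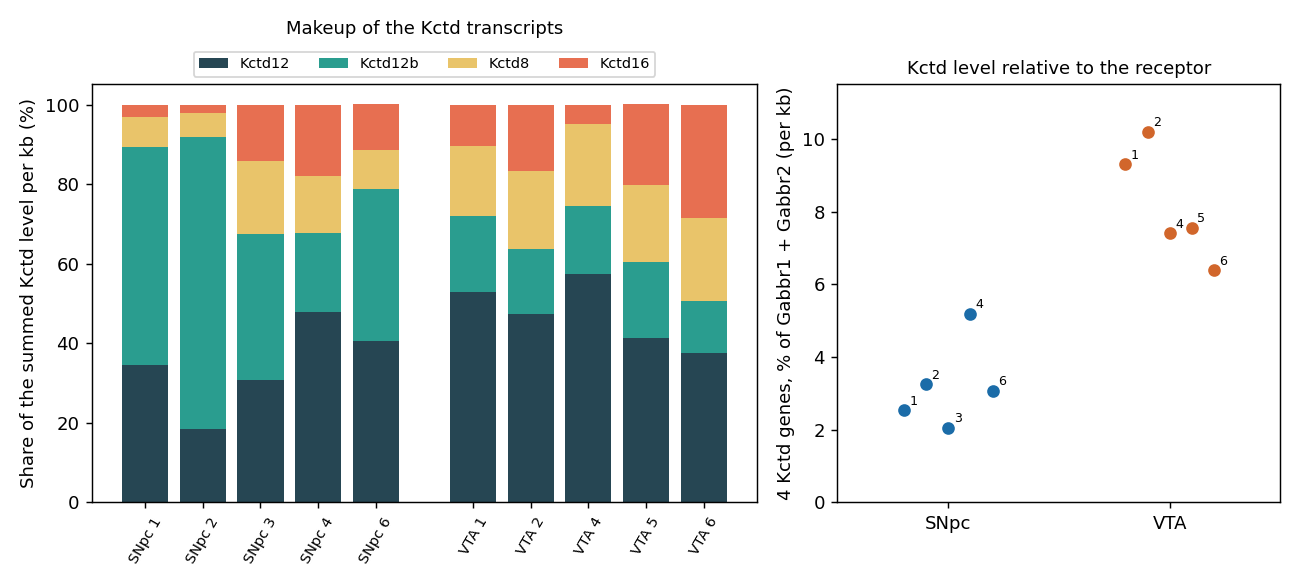
Left, share of each Kctd gene in the summed Kctd level per kilobase (y axis, %) for each library. Right, the 4 Kctd genes as a percentage of Gabbr1 plus Gabbr2 per kilobase, each point a library with its number: SNpc libraries lie between 2.05% and 5.19% and VTA libraries between 6.38% and 10.2%.

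Marker levels also differed between the libraries. The mean log2 CPM of astrocyte, oligodendrocyte and microglia markers was 4.27 in SNpc library 4, 2.22 to 2.58 in the other SNpc libraries and 3.17 to 3.8 in VTA. That library, above every VTA library in this mean, was the highest SNpc library for Kctd8, Kctd12 and Kctd16 and the lowest for Gabbr1. Its Kctd8 (3.03 CPM) and Kctd12 (18 CPM) were below every VTA library (at least 5.38 and 18.6 CPM). Its Kctd16 lay above VTA libraries 1 and 4. Microglia markers summed to 14.7 to 37 CPM in SNpc and 36 to 51.6 CPM in VTA with 1 of 6 called, and endothelial and mural markers to 1.47 to 7.21 CPM in SNpc and 5.21 to 68 CPM in VTA with 1 of 4 tested called, both lower in SNpc. The endothelial and mural sum of 68 CPM was that of VTA library 1, and the next VTA library had 11.4 CPM. Glutamatergic neuron markers summed to 18.6 to 87.4 CPM in SNpc and 91.3 to 130.2 CPM in VTA, with 1 of 2 lower in SNpc. GABAergic neuron markers summed to 299 to 562 CPM in SNpc and 314 to 410.5 CPM in VTA. The part of other cells in the Kctd differences was not tested. The covariate fits given above cannot decide it. Their covariate holds no neuron markers and was lower in every SNpc library than in any VTA library, except in SNpc library 4.

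The partners of the receptor differed in both directions. The 9 lists of pathway genes were chosen with earlier results of these data known and held 95 tested members. Of these, 25 were higher in SNpc and 20 were lower, 26.3% and 21.1%, against 17.8% and 20.4% of all genes tested. The median log2 fold change was 0.01, against -0.04 over all genes tested. With the length and GC trend removed and the scale kept, 26 of the list genes were higher and 12 were lower.

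GIRK channels, the potassium channels that the receptor opens, were divided. Kcnj6, the main subunit by level per length here, was 406 ± 86.8 CPM in SNpc and 231 ± 21.5 CPM in VTA (mean ± SD of 5 libraries per region). The log2 fold change was 0.81 ± 0.13 (SE, edgeR adjusted p = 1.00e-04). Kcnj5 (0.974 ± 0.644 CPM in SNpc and 8.87 ± 4.15 CPM in VTA, log2 fold change -3.18) and Kcnj3 (9.18 ± 4.12 CPM in SNpc and 22.4 ± 6.37 CPM in VTA, -1.28) were lower in SNpc. Kcnj9, the other subunit described in these neurons, was 13.9 ± 4.51 CPM in SNpc and 15.5 ± 4.05 CPM in VTA and did not pass (log2 fold change -0.16, edgeR adjusted p = 0.617). The groups did not overlap for Kcnj6, Kcnj5 and Kcnj3, as was so for 26.6% of all genes tested.

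G protein subunits that passed were mostly higher in SNpc. Of 5 Gi/o alpha subunits, 2 were higher in SNpc and 0 lower, namely Gnao1 (1273 ± 61.6 CPM in SNpc and 1029 ± 72.6 CPM in VTA, log2 fold change 0.31) and Gnai1 (0.40), while Gnaz had 0.23 without passing. Without SNpc library 4 Gnaz was called at 0.37 (edgeR adjusted p = 0.00754), and with the length and GC trend removed and the scale kept at 0.31 (edgeR adjusted p = 0.0434). Of 14 tested beta and gamma subunits, 7 were higher in SNpc and 1 was lower, 50% and 7.14%, with a median of 0.33. Of all genes tested, 17.8% were higher and 20.4% were lower. With glial markers in the model 4 of the beta and gamma subunits were higher and 0 lower. With the length and GC trend removed 5 were higher and 1 lower. Gng3, the most abundant per length, was 1753 ± 209.7 CPM in SNpc and 1149 ± 146 CPM in VTA (log2 fold change 0.61), Gnb1 was 1621 ± 99 CPM in SNpc and 1062 ± 102 CPM in VTA (0.61), and Gnb5, which pairs with RGS proteins of the R7 group, had 0.78. Of 19 RGS proteins, which end G protein signals, and their R7 partners, 4 were higher in SNpc and 4 lower, 21.1% each. These shares were near those of all genes tested, 17.8% higher and 20.4% lower. With glial markers in the model 2 of the 19 were higher and 2 lower. Rgs6 (0.72), Rgs7 (0.37) and Gpr158 (0.40), a receptor that binds the Rgs7 product, were higher in SNpc, and Rgs17 was lower (-0.48). The calls of Rgs7 and Rgs17 ended with the length and GC trend removed, and that of Gpr158 with glial markers added to the model.

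Adenylyl cyclases, some of which the receptor slows through Gi/o, were lower in SNpc wherever they passed. Of 8 tested, 5 were lower (62.5%, against 20.4% of all genes tested) and 0 higher, with a median log2 fold change of -0.88. With the length and GC trend removed 3 were lower. Adcy6 was 14.5 ± 2.26 CPM in SNpc and 33.3 ± 4.04 CPM in VTA (log2 fold change -1.20), Adcy1 144 ± 29.5 CPM in SNpc and 345 ± 111 CPM in VTA (-1.26), and Adcy8 11.9 ± 4.61 CPM in SNpc and 30.2 ± 14.3 CPM in VTA (-1.35). Adcy5, at 71.8 ± 10.8 CPM in SNpc and 89.5 ± 16.6 CPM in VTA, did not pass (edgeR adjusted p = 0.0694), but was called lower in SNpc with glial markers in the model (-0.43, edgeR adjusted p = 0.0364), with library totals, with all 12 columns, and without SNpc library 1 or VTA library 1. Of the presynaptic calcium channel pores, Cacna1a was lower in SNpc (log2 fold change -0.25, edgeR adjusted p = 0.0409) and Cacna1b was not called (-0.15). The call of Cacna1a held in 3 of 9 other settings and in 1 of 10 fits without 1 library, and DESeq2 did not make it (adjusted p = 0.056). With glial markers in the model Cacna1b was called lower in SNpc (-0.39, edgeR adjusted p = 0.02). With the length and GC trend removed both values turned positive, to 0.23 for Cacna1a and 0.37 for Cacna1b, and neither passed.

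Of 18 tested genes for proteins that bind, move or modify the receptor, 7 were higher in SNpc and 5 were lower, with a median of 0.16. These were 38.9% and 27.8%, against 17.8% and 20.4% of all genes tested. App, whose product binds the sushi domain of the longer Gabbr1 isoform (523 ± 27.4 CPM in SNpc and 337 ± 35.5 CPM in VTA, log2 fold change 0.64), the membrane fusion ATPase Nsf (0.59) and the transcription factor Atf4 (0.35) were higher in SNpc. The receptor kinase Grk5 was lower, at 19.2 ± 2.66 CPM in SNpc and 41.6 ± 4.86 CPM in VTA (-1.12, edgeR adjusted p = 1.10e-05). The call of Atf4 ended with the length and GC trend removed. Among genes of GABA synthesis, transport and breakdown, the synthesis enzyme Gad2, at 109 ± 63.5 CPM in SNpc and 188 ± 37.6 CPM in VTA, the transporter Slc6a11 (-0.40) and the transaminase Abat (0.15) did not pass with all 10 libraries. Without SNpc library 4, Gad2 was called lower in SNpc (-1.16, edgeR adjusted p = 2.34e-05), as was Slc6a11 (-0.50, edgeR adjusted p = 0.0216). Gad2 was also called with glial markers in the model (-0.46, edgeR adjusted p = 0.0351), and Slc6a11 without VTA library 2 (-0.49, edgeR adjusted p = 0.0395). Abat was called higher in SNpc with the length and GC trend removed (0.39, edgeR adjusted p = 4.38e-04).

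The other Kctd family genes, most of them adaptors for ubiquitin ligases, gave 3 of 17 higher in SNpc and 2 lower, with a median of -0.09. These shares, 17.6% and 11.8%, were not above the 17.8% higher and 20.4% lower of all genes tested. Kctd15 was 8.88 ± 1.8 CPM in SNpc and 22.6 ± 5.44 CPM in VTA (log2 fold change -1.35, edgeR adjusted p = 6.13e-05). Kctd2 (0.57), Kctd6 (0.60) and Kctd13 (0.30) were higher in SNpc, and Kctd17 (0.25) passed only with all 12 columns (0.31, edgeR adjusted p = 0.033). The call of Kctd13 ended in most fits that left out a library, and with library totals, glial markers or the length and GC correction.

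**Figure D5:**
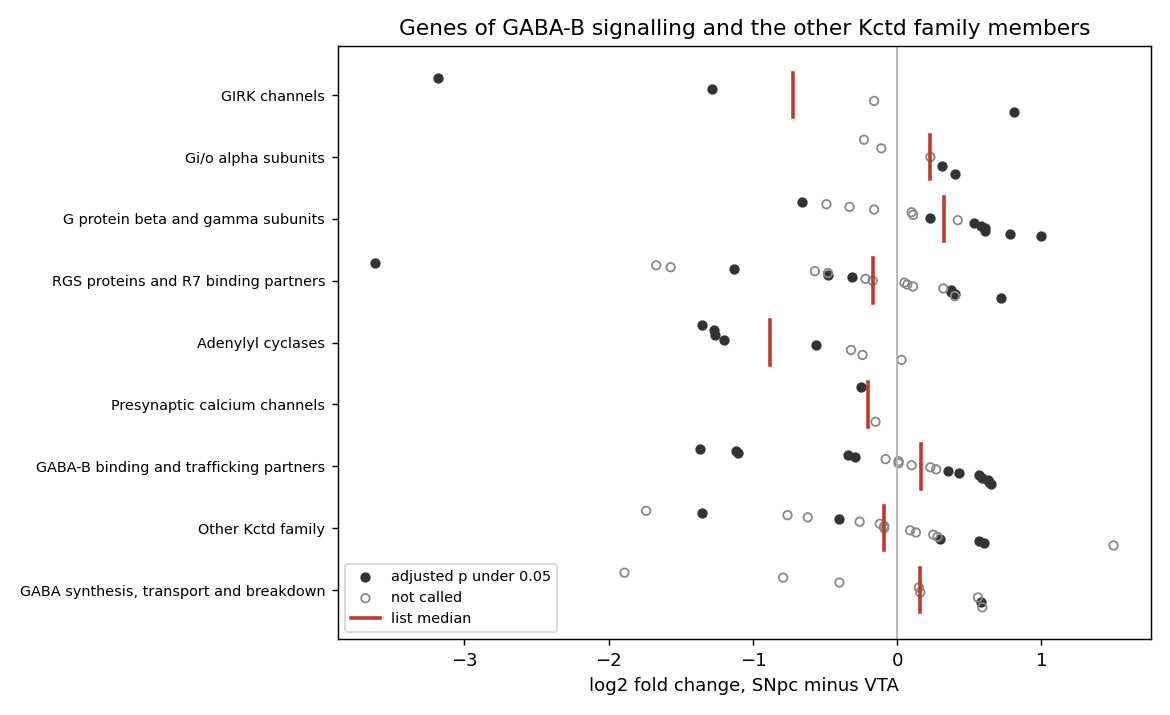
Log2 fold change, SNpc minus VTA (x axis), of each tested gene in 9 lists, filled where the edgeR adjusted p was under 0.05, with red lines at the list medians. Adenylyl cyclases lie mostly to the left, with a median of -0.88, and beta and gamma subunits mostly to the right, with a median of 0.33.

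Genes with the profile most like each member were ranked by the root mean square difference in log2 CPM, centred over the 10 libraries, where 0 would be an identical profile. Nearest to Kctd8 were Bche (0.21), Fgd6 (0.22) and Prex2 (0.25), and nearest to Kctd12 were Nrp1 (0.22), Nwd1 (0.27) and Npas3 (0.28). Gabbr1 lay within 0.07 of Fkbp1a, Mfsd6 and Eri3, and Gabbr2 within 0.08 of Ppp2r1b, Stx16 and Rbm6. Kctd12b was nearest to Slc37a4 (0.24), Hist1h2be (0.25) and D19Ertd386e (0.27). Kctd16 had no close neighbour by this measure. Its nearest genes, Alms1-ps2 (0.53), Prkch (0.53) and Cbln2 (0.54), lay farther off than those of any other member. The measure is not scaled to the spread of a gene, and Kctd16 was the least abundant and most variable member. The member profiles share their libraries and their depth, so the distances are a description of these 10 libraries.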

How the data were processed

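The authors deposited raw read counts per gene, whole numbers with no normalization, for 23079 genes in 12 columns. TopHat2 2.0.8 and mm10 are named in the submitters' processing notes. How reads were counted, on which annotation and with which strand setting is not given in the sources used here. Per the labels' protocols, cDNA was made with the Ovation RNA-Seq System V2, a kit that does not mark strand. Identical columns were counted once, which left 10 libraries. No label ties a library to an animal, and the p-values therefore cover only library-to-library spread, which may be technical.

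The test was edgeR 4.0.16 in R 4.3.3, with filterByExpr by region, TMM scaling, robust quasi-likelihood F test, Benjamini-Hochberg adjustment, threshold 0.05. CPM are TMM-scaled, log2 fold changes are SNpc minus VTA, and log2 CPM used a prior count of 2. Alternatives were DESeq2 1.42.0, other scales, no filter, all 12 columns, a replicate block, removal of a length and GC trend, a glial marker covariate, and leaving out each library. Ratios used exact permutation tests (scipy 1.17.1). Exon lengths are merged exons of GENCODE M21 and matched 20946 genes. The models were tested on simulated data.

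The members and lists were chosen with earlier results of these data known. Named genes are the 6 members, in each list 3 genes by lowest p and 2 by level per length, and the 3 nearest profiles of each member. Piantp was not analysed here. The result of 1 listed gene is not reported here.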

Additional observations from a re-analysis of the deposited data

Results flagged for a closer look

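Of 84 groups of 5 values examined (members, ratios and named list genes in each region), 5 had 1 library far from the others by Dixon's criterion, where chance gives about 1 in 20. None of the 6 members or 3 ratios was among them. Gad2 was 221 CPM in SNpc library 4, against 88.5 CPM in the next SNpc library. Kcnj6 was 269 CPM in VTA library 6, with the next VTA library at 229.9 CPM. Rgs17 was 515 CPM in VTA library 2, with the next at 408 CPM. Rgs7 was 129 CPM in SNpc library 2, the lowest, with the next at 152 CPM. Adcy5 was 90.4 CPM in SNpc library 1, with the next at 69.6 CPM.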

How the results depend on the processing

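Kctd8 and Kctd12 were called lower in SNpc in all 9 other planned settings and in all 10 fits without 1 library, with log2 fold changes of -2.29 to -1.65 for Kctd8 and -1.93 to -1.22 for Kctd12. Gabbr1 kept its direction throughout but not its call: it had 0.23 with library totals, 0.22 with glial markers in the model and, without 1 library, 0.21 to 0.38, so that 0 members were called higher in SNpc in those settings (0 to 1 without 1 library). Kctd16 had -1.51 with glial markers and -2.40 to -1.49 without 1 library. Gabbr2 turned to 0.23 with the length and GC trend removed and the scale kept, and to 0.21 with the scale refitted. Kctd12b ran from -0.15 to 0.35 without 1 library. The cause was not tested in these cases. Of the 25 named list genes called, 20 were still called with the length and GC trend removed and 23 with glial markers. With the trend removed Adcy5 turned to 0.14 and 0.13, Cacna1a to 0.23 and 0.22 and Cacna1b to 0.37 and 0.36, and Cacna1b ran from -0.22 to 0.02 without 1 library, positive without SNpc library 4. Kcnj9 was 0.01 with glial markers. Pathway genes lower in SNpc numbered 12 and 13 with the trend removed. Without division by length, the VTA shares were 13.8% for Kctd8, 59.2% for Kctd12 and 9.86% for Kctd16, and the SNpc share of Kctd16 was 5.76%.

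Same-numbered libraries had correlations of -0.0723 to 0.0443 between their deviations, so the numbers were not taken to pair them. The identical columns could carry either of 2 numbers, and with the other ones the correlations were 0.0762 for number 3 and -0.106 for number 5. With the replicate block over the 8 libraries whose numbers occur in both regions, Gabbr1 had 0.28 (edgeR adjusted p = 0.156) and Kctd16 -2.32 (edgeR adjusted p = 0.0844), so 0 members and 15 pathway genes were called higher in SNpc, as were 1789 genes of the whole table. The same 8 libraries without the block, a setting added after seeing the data, gave 0.27 for Gabbr1, -1.65 for Kctd16, and 0 members, 22 pathway genes and 2242 genes called higher, against 2793 genes in all 10 libraries. Paired sign-flip tests gave ratio differences of 0.41 for Gabbr1 to Gabbr2 and -1.51 for Kctd12 to Gabbr2 (exact adjusted p = 0.188 each), a design of 4 pairs that cannot pass the threshold. Kctd8 and Kctd16 rest on few counts, and all values cover only these libraries.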
